A study of Mus musculus with 6 samples.

Results

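The transcripts described here are those of 7 laminin chains (Lama2, Lama4, Lama5, Lamb1, Lamb2, Lamc1 and Lamc3), both nidogens (Nid1 and Nid2) and perlecan (Hspg2). They were taken by name, with no measured value used in choosing them, and make up 10 of the 23998 gene symbols in the count tables. The series sorted single cells of digested mouse kidney into plates and read them with Smart-seq2, which sequences whole transcripts of 1 cell per well. Each of 6 plates held cells of 3 mice sorted through 1 of 2 gates, called mesenchyme and endothelia here. The injury was unilateral ureteric obstruction (UUO), the ligation of a ureter, which damages that kidney and leads to fibrosis. The conditions were mice at day 2 of UUO, mice at day 10 of UUO and healthy mice, and the labels give no strain, age, sex or genotype for any of them. Wells carry a number from 1 to 4, taken here as the mouse of each condition. All reads of a gate, condition and number were added, which gave 24 sums and n = 4 per gate and condition.

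Basement membranes are sheets of matrix that line epithelium and endothelium and wrap smooth muscle. A laminin is a cross of 1 alpha, 1 beta and 1 gamma chain, and laminins bind cells through integrins and dystroglycan. Nidogens link the laminin sheet to type IV collagen, and perlecan is a large proteoglycan that carries heparan sulfate and binds both. In the kidney the mature glomerular basement membrane is built on the Lama5, Lamb2 and Lamc1 chains, and loss of LAMB2 causes nephrotic syndrome in humans.

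The sums held 61 to 127 wells and 19382742 to 47827752 reads in the mesenchyme gate, and 63 to 127 wells and 21981703 to 56326210 reads in the endothelia gate. Levels are CPM, read counts scaled to a common library total, with TMM scaling unless said otherwise. The gates matched their labels by defining markers. Pecam1, an endothelial adhesion molecule, had a median of 1.23 CPM in mesenchyme sums and 2489.8 CPM in endothelia sums. Pdgfrb, a receptor found on mural cells and fibroblasts, had a median of 990.2 CPM in mesenchyme sums and 4.10 CPM in endothelia sums. Wells whose cluster fell in the class of their gate made up 84.6% to 88.2% of the mesenchyme gate and 89.7% to 92.1% of the endothelia gate, and 54 podocyte-like wells were spread over both. Sums mix cell types, so fewer cells of a type and less RNA per cell cannot be told apart in them.

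The 2 gates differed in which chains they expressed. Mesenchyme cells had more Lama2, Lama5 and Lamb2 and less Nid2 and Hspg2 than endothelia cells, in healthy kidneys and at both times of UUO. In healthy kidneys edgeR's quasi-likelihood test called 5 of the 10 members, 3 higher and 2 lower in mesenchyme, where 21.7% of all genes tested were called (10.2% higher and 11.5% lower). At day 2 of UUO it called 9 of 10 (3 higher, 6 lower; background 19.8%, with 9.35% higher and 10.5% lower) and at day 10 it called 9 of 10 (4 higher, 5 lower; background 20.1%, with 9.82% higher and 10.3% lower). The median log2 difference in healthy kidneys was -0.10 over the 10 members and -0.029 over all 16116 genes tested. At day 2 the median was -0.91 over the 10 members and 0.046 over all 16116 genes tested, and at day 10 it was -0.81 over the 10 members and 0.13 over all 16116 genes tested.

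Among the alpha chains, Lama2 marked the mesenchyme gate. This chain, the alpha chain of muscle laminin, is the one lost in a congenital muscular dystrophy. Healthy sums of numbers 1 to 4 had 49.1, 59.6, 51.8 and 94.9 CPM in mesenchyme, against 0.148, 0.0445, 0 and 1.63 CPM in endothelia. Day 2 sums had 48.3, 32.2, 42.2 and 30.3 CPM in mesenchyme and 0.439, 0.0922, 0.514 and 0.0678 CPM in endothelia, and day 10 sums 74.6, 49.9, 56.9 and 64.2 CPM in mesenchyme and 0.330, 0.277, 0.532 and 2.97 CPM in endothelia. Every mesenchyme sum stood far above every endothelia sum. The log2 difference was 8.41 ± 1.03 in healthy kidneys (SE; edgeR adjusted p = 7.11e-05), 7.41 ± 0.96 at day 2 (adjusted p = 0.000119) and 6.62 ± 0.94 at day 10 (adjusted p = 0.000257). The endothelia sums behind it held only 72, 34 and 187 reads of Lama2 at the 3 times, so the size of this fold is poorly fixed. Of the Lama2 reads in the endothelia gate, 49.5% came from 10 fibroblast-like wells.

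Lama5, the alpha chain of most mature epithelial and vascular basement membranes, was present in both gates and higher in mesenchyme. Healthy sums had 349, 292, 396 and 261 CPM in mesenchyme, against 169.7, 172, 209 and 166 CPM in endothelia, with no overlap. Ranges at day 2 were 303 to 527 CPM in mesenchyme and 153 to 287 CPM in endothelia, and at day 10 225 to 391 CPM in mesenchyme and 123 to 299.9 CPM in endothelia. The day 2 groups were apart, while the day 10 groups overlapped. The log2 difference was 0.85 ± 0.21, 0.90 ± 0.21 and 0.75 ± 0.21 at the 3 times (edgeR adjusted p = 0.0108, 0.00804 and 0.0243). The healthy call was lost without number 1 or 3 (adjusted p up to 0.0788), the day 2 call without number 1 or 4 (up to 0.0822) and the day 10 call without any 1 of the 4 (0.0519 to 0.103).

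Lama4, the alpha chain of vascular laminins made by endothelium, went the other way. Mesenchyme sums had 96.3, 54.02, 37.8 and 67.2 CPM in healthy kidneys, 85.0, 42.7, 50.3 and 48.3 CPM at day 2 and 56.1, 18.3, 41.1 and 58.8 CPM at day 10. Endothelia sums had 109.6, 40.3, 98.4 and 148 CPM in healthy kidneys, 220.4, 163, 83.8 and 127 CPM at day 2 and 239, 179, 147 and 138 CPM at day 10. The gates overlapped in healthy kidneys, overlapped by 1 sum at day 2 and were apart at day 10. Lama4 was lower in mesenchyme by a log2 difference of -1.36 ± 0.35 at day 2 (edgeR adjusted p = 0.0140) and -2.10 ± 0.36 at day 10 (adjusted p = 0.00111), and did not pass in healthy kidneys (-0.57 ± 0.35, adjusted p = 0.295). The day 2 call was lost without number 1 or 4 (adjusted p up to 0.0894).

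Of the beta chains, Lamb2, the one of the mature glomerular basement membrane, separated the gates at all 3 times. Healthy sums had 579, 576, 689 and 566 CPM in mesenchyme, against 185, 183, 304 and 309.7 CPM in endothelia. Day 2 sums had 465, 601, 549.6 and 502 CPM in mesenchyme and 171, 182, 241 and 205 CPM in endothelia, and day 10 sums 408, 506, 587 and 410.0 CPM in mesenchyme and 170.3, 131, 239 and 149.5 CPM in endothelia. The lowest mesenchyme sum of any time lay above the highest endothelia sum of any time. The log2 difference was 1.34 ± 0.18, 1.41 ± 0.18 and 1.49 ± 0.18 at the 3 times (edgeR adjusted p = 0.000127, 8.92e-05 and 6.67e-05). Lamb1, the beta chain of embryonic and many adult laminins, did not separate the gates in healthy kidneys (63.0 to 93.8 CPM in mesenchyme, 56.0 to 123 CPM in endothelia; log2 difference -0.036 ± 0.25, adjusted p = 0.946). At day 2 it was lower in mesenchyme, with 30.5, 67.7, 42.9 and 33.1 CPM against 91.8, 167, 89.3 and 83.2 CPM in endothelia and no overlap (-1.32 ± 0.25, adjusted p = 0.00218). At day 10 it did not pass (-0.66 ± 0.25, adjusted p = 0.0832).

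Of the gamma chains, Lamc3 was found mainly in the mesenchyme gate, and Lamc1, the gamma chain of most laminins, was found in both. Healthy Lamc3 sums had 57.2, 99.3, 119 and 72.5 CPM in mesenchyme, against 11.8, 10.4, 0 and 4.64 CPM in endothelia. Day 2 sums had 58.0, 15.2, 38.1 and 57.6 CPM in mesenchyme and 0.0258, 0, 11.4 and 9.42 CPM in endothelia, and day 10 sums 15.7, 26.6, 62.5 and 33.9 CPM in mesenchyme and 1.76, 0, 0.874 and 0.120 CPM in endothelia. The gates did not overlap at any of the 3 times, though some endothelia sums were at or near 0 and the fold is poorly fixed. Only the day 10 difference passed (6.59 ± 1.95, edgeR adjusted p = 0.0302). In healthy kidneys the log2 difference was 4.18 ± 1.71 (adjusted p = 0.106) and at day 2 it was 5.10 ± 2.03 (adjusted p = 0.103). The day 10 call was lost without number 2 or 4 (adjusted p up to 0.142). DESeq2's Wald test called Lamc3 higher in mesenchyme in healthy kidneys and at day 2 as well (adjusted p = 0.00588 and 5.13e-05), where it called 34.4% and 32.4% of all genes, and 32.9% at day 10. Lamc1 had 78.3 to 132 CPM in healthy mesenchyme and 87.1 to 174 CPM in healthy endothelia, and did not pass (-0.31 ± 0.17, adjusted p = 0.223). It was lower in mesenchyme at day 2 (-0.69 ± 0.17, adjusted p = 0.0103) and at day 10 (-1.20 ± 0.17, adjusted p = 0.000242), where 80.2 to 114 CPM in mesenchyme and 169 to 267 CPM in endothelia did not overlap. The day 2 call was lost without number 2, 3 or 4 (adjusted p up to 0.0801) and with no replicate block.

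Of the nidogens, Nid2 was lower in mesenchyme at all 3 times, while Nid1 passed as lower there only during UUO. Healthy Nid2 sums had 38.1, 22.9, 21.0 and 21.9 CPM in mesenchyme, against 175, 123, 55.8 and 94.6 CPM in endothelia. Day 2 sums had 7.87, 19.5, 14.4 and 22.2 CPM in mesenchyme and 129, 179, 154 and 116 CPM in endothelia, and day 10 sums 19.7, 8.53, 42.8 and 13.01 CPM in mesenchyme and 266, 175, 137 and 119 CPM in endothelia. The gates did not overlap at any time, and the log2 difference was -2.04 ± 0.38, -3.26 ± 0.40 and -3.27 ± 0.41 (edgeR adjusted p = 0.00173, 8.06e-05 and 0.000108). Nid1 had 115 to 235 CPM in healthy mesenchyme and 131 to 327 CPM in healthy endothelia (-0.16 ± 0.28, adjusted p = 0.744). During UUO it was lower in mesenchyme, with a log2 difference of -1.13 ± 0.27 at day 2 (adjusted p = 0.0104) and -0.96 ± 0.28 at day 10 (adjusted p = 0.0270). The day 2 call was lost without number 3 (adjusted p = 0.0674) and the day 10 call without number 1, 2 or 3 (up to 0.155).

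Perlecan was expressed in both gates and lower in mesenchyme throughout. Healthy Hspg2 sums had 199.5, 228, 283 and 273 CPM in mesenchyme, against 441, 272, 739 and 534 CPM in endothelia. Day 2 sums had 146, 178, 234 and 155 CPM in mesenchyme and 403, 367, 645 and 399 CPM in endothelia, and day 10 sums 127, 169.6, 249 and 176 CPM in mesenchyme and 521, 416, 578 and 515 CPM in endothelia. The healthy groups touched, with number 2 of endothelia just under 2 mesenchyme sums, and the day 2 and day 10 groups were apart. The log2 difference was -0.94 ± 0.20, -1.33 ± 0.20 and -1.52 ± 0.20 (edgeR adjusted p = 0.00358, 0.000308 and 0.000130). The calls of Lama2, Lamb2, Nid2 and Hspg2 held at all 3 times without any 1 of the 4 numbers.

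**Figure D1:**
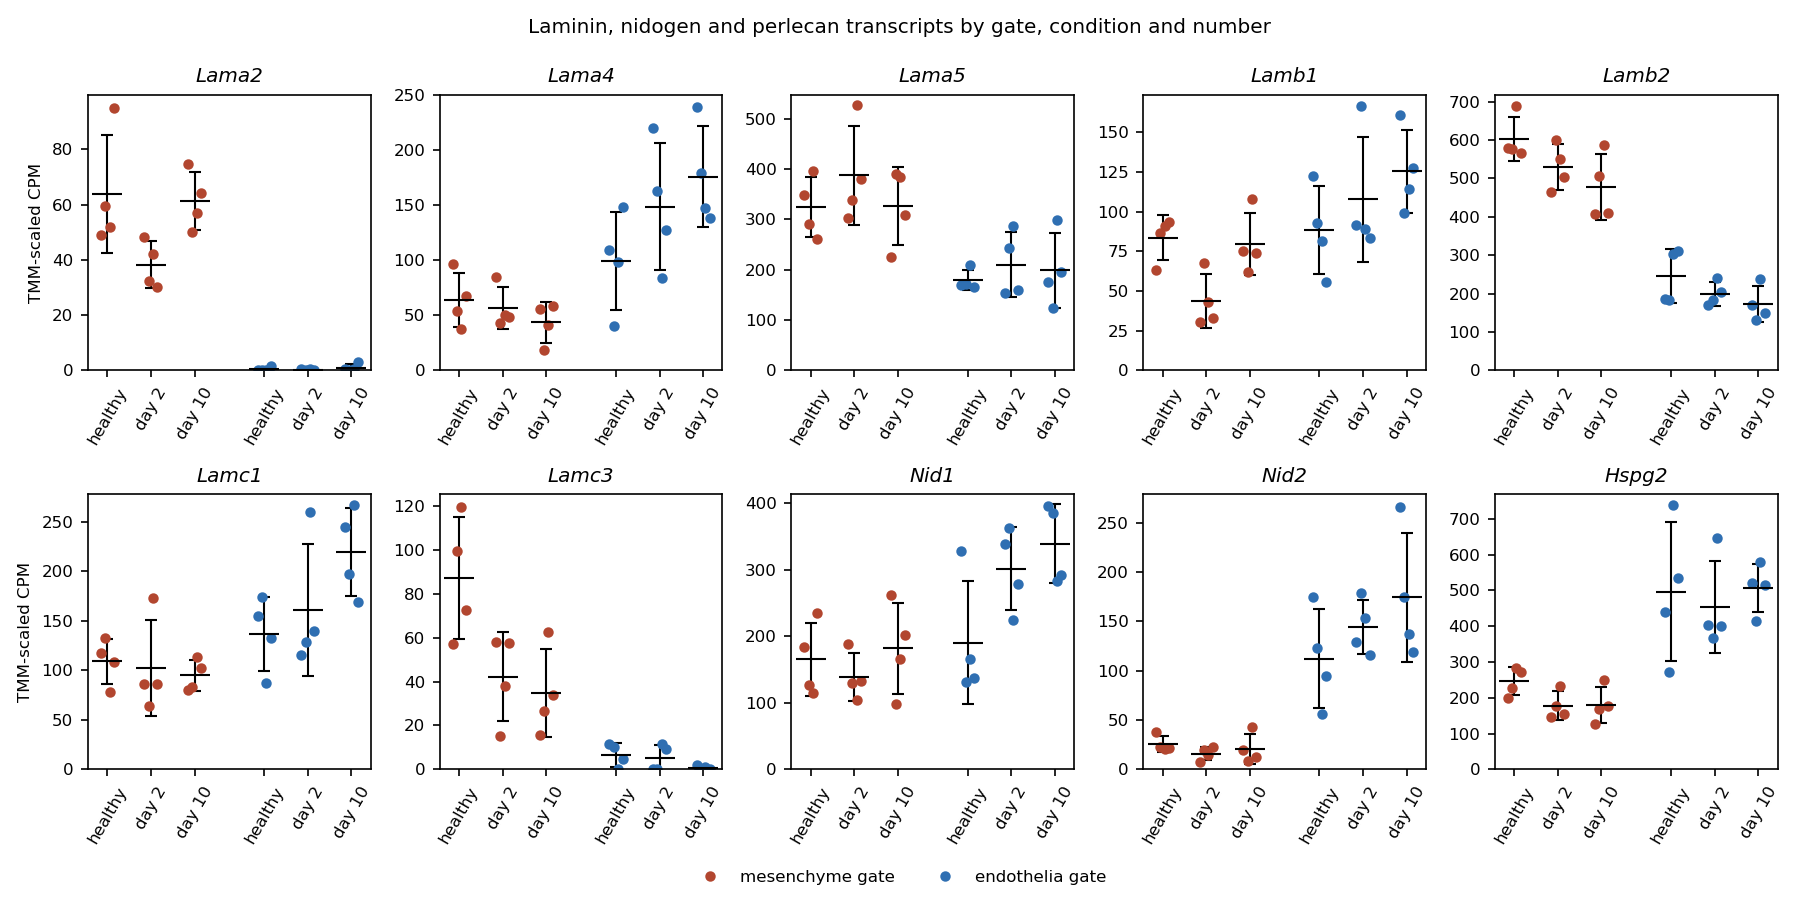
TMM-scaled CPM of the 10 members, one panel per gene with its own axis from 0. Points are the 4 sums of a gate and condition, and the bar and whiskers are their mean and SD. Lama2 and Lamc3 are low in the endothelia gate, and Lamb2 of the mesenchyme gate lies above Lamb2 of the endothelia gate in every sum.

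**Figure D2:**
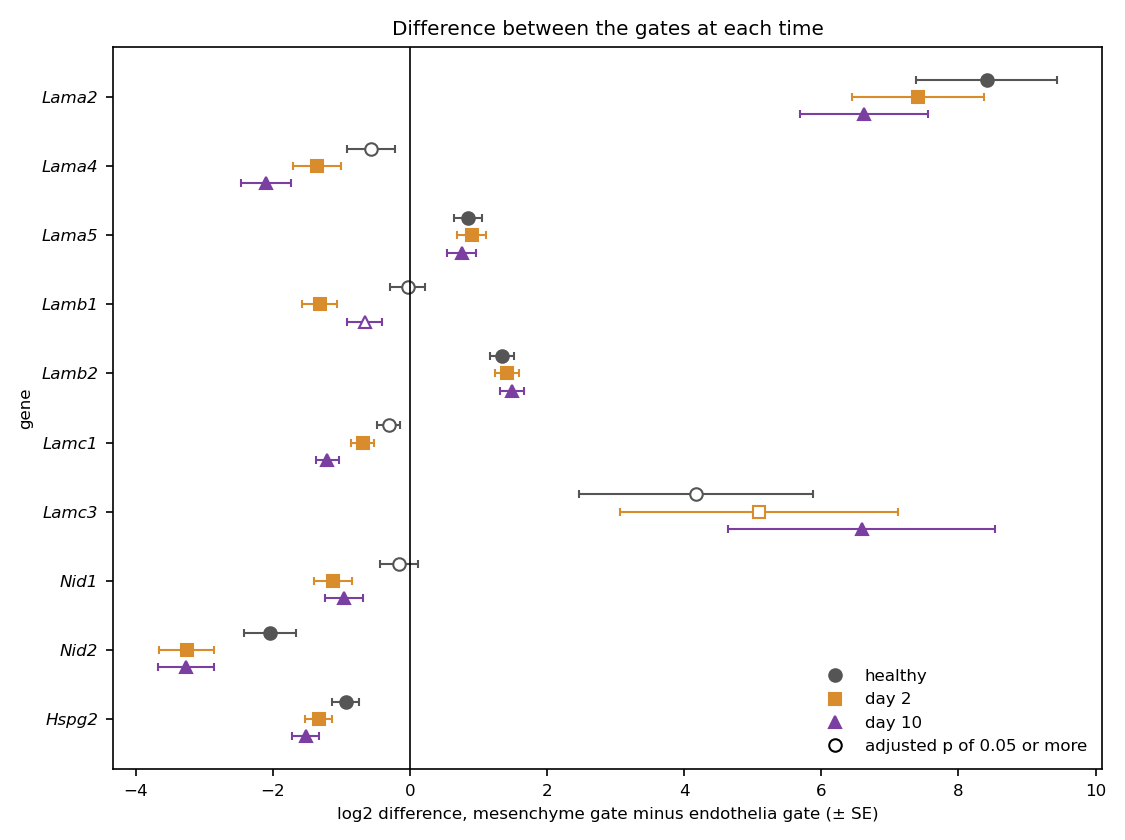
Log2 difference between the gates (mesenchyme minus endothelia, with its SE) for each member at the 3 times. Filled symbols passed an adjusted p of 0.05, and Lama2, Lama5, Lamb2, Nid2 and Hspg2 are filled at all 3.

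For the 5 members called at all 3 times, promoters were looked up, and 4 of them had an entry among the RefSeq promoters of GRCm38.p6. Each window holds 250 bases before and 50 after the gene's RefSeq start, read 5′ to 3′ on the gene's strand. They are shown because these genes separated the gates at every time. Capitals mark matches on either strand to a GC box (GGGCGG), an ETS core (CGGAAG) or a CArG box (by name only), and TATAAA and TGANTCA (an AP-1 site) were also searched.
Lama2, chr10:27616893-27617192, minus strand: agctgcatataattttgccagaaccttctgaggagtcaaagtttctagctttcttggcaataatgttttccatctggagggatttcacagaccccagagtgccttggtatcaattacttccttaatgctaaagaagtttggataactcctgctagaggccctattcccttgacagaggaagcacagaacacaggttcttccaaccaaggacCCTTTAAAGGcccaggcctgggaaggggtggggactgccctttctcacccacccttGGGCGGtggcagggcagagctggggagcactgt
Lama5, chr2:180225810-180226109, minus strand: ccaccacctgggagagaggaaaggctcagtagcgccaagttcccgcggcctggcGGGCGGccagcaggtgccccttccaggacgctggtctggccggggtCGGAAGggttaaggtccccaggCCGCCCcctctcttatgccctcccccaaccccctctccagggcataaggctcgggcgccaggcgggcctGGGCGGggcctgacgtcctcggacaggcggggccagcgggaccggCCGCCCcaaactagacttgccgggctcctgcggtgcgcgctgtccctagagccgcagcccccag
Lamb2, chr9:108479612-108479911, plus strand: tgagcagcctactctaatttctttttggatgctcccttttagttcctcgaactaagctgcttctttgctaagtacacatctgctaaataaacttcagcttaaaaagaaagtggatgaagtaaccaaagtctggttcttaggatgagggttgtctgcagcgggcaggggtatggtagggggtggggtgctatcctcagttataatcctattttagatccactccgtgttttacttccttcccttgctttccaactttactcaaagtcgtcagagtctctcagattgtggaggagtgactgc
Hspg2, chr4:137468553-137468852, plus strand: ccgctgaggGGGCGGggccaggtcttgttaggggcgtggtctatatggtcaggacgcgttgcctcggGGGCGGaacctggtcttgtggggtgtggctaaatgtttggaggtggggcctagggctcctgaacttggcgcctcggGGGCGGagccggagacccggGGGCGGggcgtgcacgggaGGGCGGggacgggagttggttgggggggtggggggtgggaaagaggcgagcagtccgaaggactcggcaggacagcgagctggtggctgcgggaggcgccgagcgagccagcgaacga

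The Lama5 and Hspg2 windows were rich in G and C (72.7% and 70.3%) and held 4 and 5 GC boxes, and Lama5 also held 1 ETS core. The Lama2 window (50.3% G and C) held 1 GC box and 1 CArG box, and the Lamb2 window (44.0%) held none of the 5 motifs. Over all 32851 promoters of this length, 35.7% held a GC box, 16.9% an ETS core, 1.63% a CArG box, 13.6% TATAAA and 7.81% the AP-1 letters. These are matches of letters in a window and not sites shown to be bound. On GRCm38 (mm10) the genes lie as follows. Lama2 is on chromosome 10, 26980036 to 27619758, minus strand. Lama5 is on chromosome 2, 180176373 to 180225859, minus strand. Lamb2 is on chromosome 9, 108479736 to 108490530, plus strand. Nid2 is on chromosome 14, 19751265 to 19811787, plus strand. Hspg2 is on chromosome 4, 137468769 to 137570630, plus strand. The starts of Lama2, Lamb2 and Hspg2 in this annotation lie upstream of the RefSeq starts used for the windows. For Lama2 the whole window lies inside the annotated gene.

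Per kilobase of exon, the chains can be set against each other within a class. The length used is the union of exons over all annotated transcripts of a gene, so the shares depend on that choice. It was 16.3 kb for Lama2, 12.1 kb for Lama4 and 11.4 kb for Lama5, and 9.92 kb for Lamb1 and 6.08 kb for Lamb2. Lama5 made up 73.8% ± 6.79 of all alpha-chain CPM per kb in healthy mesenchyme (SD, n = 4) and 56.6% ± 11.2 in healthy endothelia. Lama4 made up 13.8% ± 4.83 in mesenchyme and 27.9% ± 9.34 in endothelia, and Lama2 10.5% ± 4.42 in mesenchyme and 0.0868% ± 0.145 in endothelia. By this length, Lama5 was the alpha chain of highest mean share in both gates. In endothelia its range overlapped with that of Lama4 during UUO. At day 2 Lama5 ran over 39.0% to 67.9% and Lama4 over 18.7% to 53.0%. At day 10 Lama5 ran over 39.1% to 56.9% and Lama4 over 26.4% to 53.6%. Lamb2 made up 92.1% ± 1.26 of beta chains in healthy mesenchyme and 80.8% ± 8.65 in healthy endothelia. Across healthy, day 2 and day 10 endothelia its share was 71.1% to 89.9%, 63.9% to 81.5% and 63.3% to 77.3%, ranges that overlap. Lamc3 made up 51.4% ± 11.6 of the summed Lamc1 and Lamc3 CPM per kb in healthy mesenchyme, against 5.35% ± 4.08 in healthy endothelia. Its mesenchyme share was 35.8% ± 13.9 at day 2 and 31.3% ± 8.89 at day 10, and the sums ran over 39.8% to 67.4% in healthy, 23.0% to 47.9% in day 2 and 21.0% to 42.7% in day 10 kidneys. The healthy shares overlapped with those of day 2 and of day 10. Nid2 was 18.0% ± 4.70 of nidogen CPM per kb in healthy mesenchyme and 44.2% ± 10.4 in healthy endothelia.

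**Figure D3:**
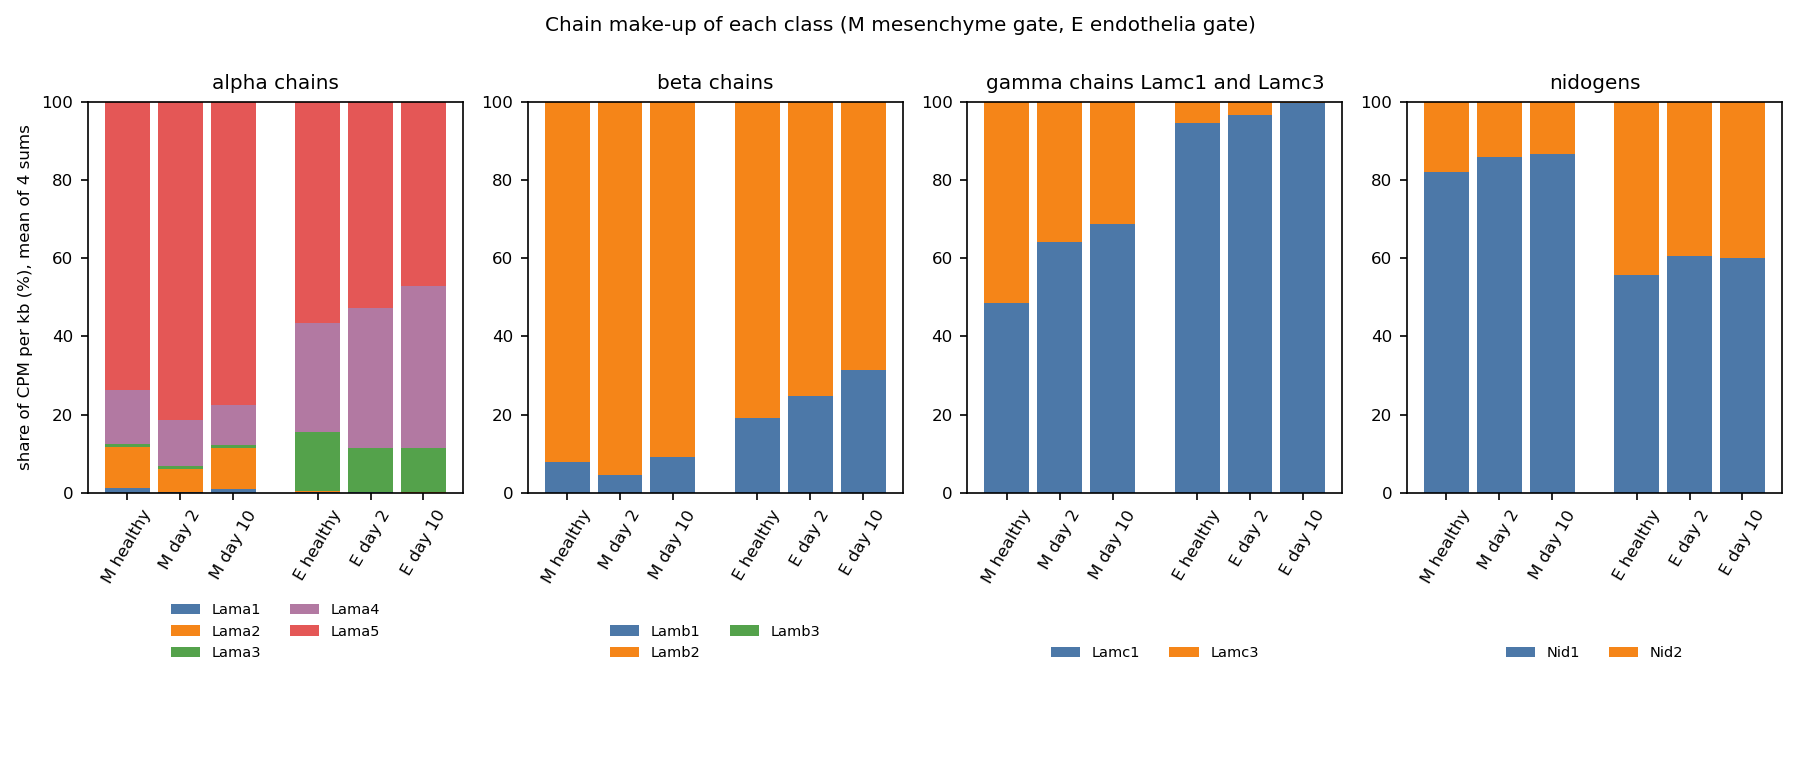
Share of each chain in the summed CPM per kb of its class (stacked bars, mean of 4 sums, vertical axis in percent) for mesenchyme (M) and endothelia (E) at the 3 times. Lamb2 fills most of the beta bars, and Lamc3 is a large part of the gamma bars (Lamc1 and Lamc3 alone) in mesenchyme and a small one in endothelia.

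Clusters of wells show which cells carried each chain. They were made with the 10 members and their companion lists left out of the clustering, and cluster levels are pooled CPM without TMM scaling, given with the range over numbers that had at least 5 wells. Lama2 was highest in the fibroblast-like cluster (310.2 CPM, 172 to 377), where 79.6% (70.3% to 87.1%) of 98 wells had a read (exact 95% interval). It had 96.4 CPM (84.5 to 112) in a mural cluster led by Ephx3, 21.1 CPM in vascular smooth muscle-like wells and at most 3.58 CPM in any endothelial cluster. Such intervals take wells pooled over numbers, conditions and gates as independent, so they cover counting error only and not the spread between numbers. Reads also carry no molecular identifiers. Lamb1 and Nid1 were also highest in fibroblast-like wells (317 and 802 CPM) and next in mesangial-like wells (254 and 574 CPM). For Lamb1 the mesangial value ran from 57.4 to 759 CPM over the numbers, so these clusters cannot be ordered.

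Lamc3 was highest in the Ephx3-led mural cluster, a set of 221 wells that the marker rule did not name. It stood at 183 CPM there (176 to 187 over 4 numbers), 60.7 CPM in fibroblast-like wells (12.2 to 89.2) and 57.9 CPM in a small Cldn1-led cluster. The smooth muscle-like wells had 7.71 CPM and the mural cluster led by Itih4 and Ren1 (renin) had 13.6 CPM. Among endothelial clusters the Aqp1-led arterial wells had the most, at 42.1 CPM (10.1 to 178), against at most 9.83 CPM in the others. A read was present in 59.7% (52.9% to 66.3%) of Ephx3-led wells, at a median depth of 377811 reads, and in 1.18% (0.144% to 4.21%) of capillary endothelium-like wells, at 343561 reads. This cluster held 19.9% of mesenchyme wells and 69.2% of that gate's Lamc3 reads. Its mesenchyme wells numbered 89 healthy, 89 day 2 and 42 day 10, and the part of this in the gate's Lamc3 level was not tested. Lamc3 was among its 10 leading genes although left out of the clustering, which describes the cluster and was not tested.

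Lama5 and Lamb2 had their highest pooled levels in the mural clusters. Lamb2 stood at 721 CPM (669 to 771) in smooth muscle-like and 659 CPM (625 to 734.3) in Itih4- and Ren1-led wells, and Lama5 stood at 418 CPM in smooth muscle-like and 472 CPM in Itih4- and Ren1-led wells. The Ephx3-led cluster overlapped with both, at 551 CPM of Lamb2 (466 to 759.7) and 322 CPM of Lama5 (271 to 478). Podocyte-like wells, whose cells lay down the glomerular basement membrane, had 399 CPM of Lamb2 and 300.2 CPM of Lama5, with 4.32 CPM of Lamb1, 1.69 CPM of Lama4 and 19.6 CPM of Hspg2. Podocyte markers summed to 734.6 to 3019.8 CPM in healthy mesenchyme sums and 2786 to 3992 CPM in healthy endothelia sums (all 5 measured). Podocyte-like wells went the other way, with 5 in healthy mesenchyme and 1 in healthy endothelia. The marker sums therefore do not rank the gates by podocyte content. Wells whose cluster matched their gate leave out podocyte-like wells along with all others outside the class of their gate. Over the matched wells the log2 difference between the gates was 1.01 ± 0.22, 0.98 ± 0.22 and 0.83 ± 0.22 for Lama5 at the 3 times. For Lamb2 it was 1.52 ± 0.20, 1.65 ± 0.20 and 1.62 ± 0.20. The part of podocyte RNA in the gate differences was not tested.

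Levels also differed among endothelial clusters. Hspg2 was highest in capillary endothelium-like wells (1144 CPM, 1026 to 1454), with 526 CPM in angiogenic endothelium-like wells (Apln and Esm1 among its leading genes) and 144 CPM (121 to 164) in an arterial endothelium-like cluster led by Ssu2. The ranges of the capillary and this arterial cluster are far apart. Lama4 had 275 CPM in capillary and 20.7 CPM in Ssu2-led arterial wells. Lamb1 had 173 CPM in angiogenic wells and 148 and 149.9 CPM in both glomerular endothelium-like clusters, against 36.0 CPM in capillary and 5.06 CPM in Ssu2-led arterial wells. Lamb2 ran the other way, with 343 CPM in Ssu2-led arterial, 364 CPM in Aqp1-led arterial and 67.1 CPM in angiogenic wells. Nid2 was highest in angiogenic wells (238 CPM, 146 to 371), close to 157 and 153 CPM in glomerular and 146 CPM in capillary wells, whose ranges overlap with it. It was 3.92 to 10.5 CPM in the 3 mural clusters. Among all clusters but the tubule-like ones, Lamc1 ran only from 77.8 CPM in podocyte-like to 219 CPM in angiogenic wells.

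**Figure D4:**
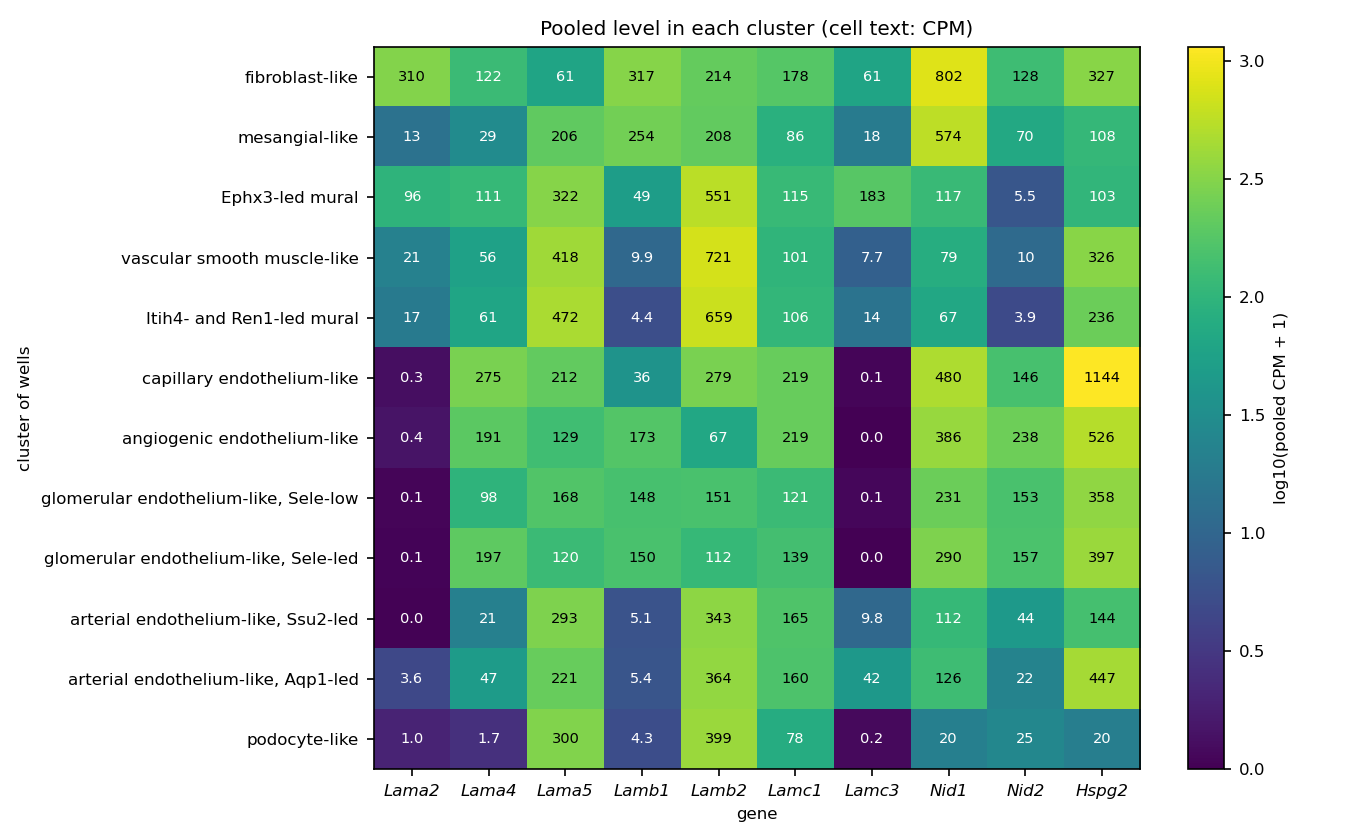
Pooled CPM of each member in 12 clusters of wells, with colour on a log10(CPM + 1) scale. Lama2 is highest in the fibroblast-like and Lamc3 in the Ephx3-led cluster, and Hspg2 peaks in capillary endothelium-like wells at 1144 CPM.

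The comparison of UUO with healthy kidneys asks whether these genes change in injury within a gate. edgeR called 0 of the 10 members in the mesenchyme gate at day 2, where 0.459% of all genes were called, 0 at day 10 (1.32%) and 0 between day 10 and day 2 (0.048%). At an unadjusted p under 0.05 it counted 4, 3 and 2 members, where 10.1%, 13.7% and 8.41% of all genes passed. DESeq2's Wald test called 2, 2 and 1 members, where 3.99%, 8.24% and 2.64% of all genes were called. For the endothelia gate edgeR called 0 members at day 2 (0.143%), 0 at day 10 (0.627%) and 0 between them (0.0143%). Its counts at an unadjusted p under 0.05 were 1, 4 and 0 members (8.57%, 10.9% and 6.37% of all genes), and DESeq2 called 1, 1 and 0 (3.42%, 5.35% and 2.1% of all genes). edgeR's 0 of 10 is close to its own backgrounds. DESeq2's shares are over genes that it gave an adjusted p. The median log2 change at day 10 was -0.29 over the 10 members and 0.039 over all 14582 genes tested in mesenchyme, and 0.60 over the 10 members and -0.0094 over all 14026 genes tested in endothelia.

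Some members had lower or higher levels at UUO that did not pass. Lamb1 in mesenchyme stood at 63.0, 86.8, 91.2 and 93.8 CPM in healthy, 30.5, 67.7, 42.9 and 33.1 CPM in day 2 and 75.3, 61.9, 108 and 73.9 CPM in day 10 sums. Day 2 was below healthy in each number, though the highest day 2 sum lay above the lowest healthy sum. The log2 change was -0.97 ± 0.26 at day 2 (edgeR adjusted p = 0.205) and -0.051 ± 0.26 at day 10 (adjusted p = 0.969). Fibroblast-like wells, with high pooled Lamb1, numbered 12 healthy, 14 day 2 and 62 day 10 in this gate. The 6 fibroblast markers, all measured, summed to 276 to 1993, 273 to 2928 and 819.8 to 4689.6 CPM over the sums, and their part in the Lamb1 and Lama2 values was not tested.

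Lamc3 in mesenchyme averaged 87.1 ± 27.7 CPM in healthy, 42.2 ± 20.3 CPM in day 2 and 34.7 ± 20.0 CPM in day 10 sums (SD, n = 4). Its log2 difference was -1.04 ± 0.46 at day 2 and -1.43 ± 0.45 at day 10 (edgeR adjusted p = 0.485 and 0.169). Within the Ephx3-led cluster alone, numbers 1 to 4 had 272, 262, 279.8 and 168 CPM in healthy, 146, 52.3, 106 and 186 CPM in day 2 and 96.3, 257, 83.1 and 197 CPM in day 10 wells, and the 3 times overlapped. Lama2 in that cluster had 177, 128, 105 and 150.4 CPM in healthy, 89.5, 33.2, 75.6 and 44.6 CPM in day 2 and 44.1, 62.8, 66.6 and 94.5 CPM in day 10 wells. Each obstructed sum of Lama2 there lay below each healthy one, but edgeR called 0 members in this cluster at either time, where 0.00924% of all genes were called. In the smooth muscle-like and the Itih4- and Ren1-led clusters Lama2 ran over 0.405 to 27.3 CPM in healthy, 10.1 to 18.7 CPM in day 2 and 11.3 to 55.9 CPM in day 10 wells, which overlapped. Over the whole gate Lama2 had a log2 difference of -0.72 ± 0.27 at day 2 (edgeR adjusted p = 0.403) and -0.051 ± 0.26 at day 10 (adjusted p = 0.971). Lamb2, Lama4, Lama5, Lamc1, Nid1 and Nid2 in mesenchyme had log2 differences between -0.67 and 0.24 at day 2 and between -0.57 and 0.13 at day 10, none passing.

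Hspg2 over the whole mesenchyme gate had a log2 difference of -0.47 ± 0.14 at day 2 (edgeR adjusted p = 0.244) and -0.47 ± 0.14 at day 10 (adjusted p = 0.134). In the smooth muscle-like and the Itih4- and Ren1-led clusters together, unscaled levels of numbers 1 to 4 were 316, 369, 399.9 and 407 CPM in healthy, 212, 209.6, 247 and 232 CPM in day 2 and 194, 213, 272 and 264 CPM in day 10 wells. All 8 obstructed sums lay below all 4 healthy sums, and day 2 and day 10 overlapped. In the Ephx3-led cluster Hspg2 ran over 31.5 to 159 CPM in healthy, 58.2 to 196 CPM in day 2 and 53.3 to 273 CPM in day 10 wells, which overlapped, with the higher means in obstructed wells. The pair of smooth muscle-like and Itih4- and Ren1-led clusters was chosen after the data were seen, so it is given as a description. Of all genes, 1.02% were called in these clusters at day 2 and 1.18% at day 10. The smooth muscle-like cluster supplied most of the healthy wells (172 of 194) and the Itih4- and Ren1-led cluster most of the obstructed wells (143 of 190 at day 2 and 141 of 170 at day 10). The 7 smooth muscle markers, all measured, summed to 33045 to 36677, 26906 to 33329 and 17629 to 26374 CPM in the gate at the 3 times. Day 10 sums lay below all healthy ones, day 2 sums overlapped with them, and the part of these markers in the Hspg2 values was not tested.

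**Figure D5:**
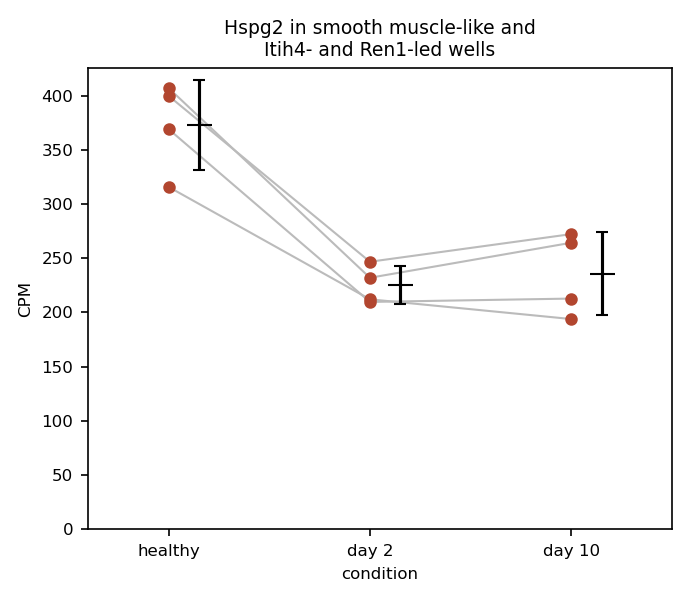
Unscaled CPM of Hspg2 in mesenchyme wells of the smooth muscle-like and the Itih4- and Ren1-led clusters at the 3 times. Points are the 4 numbers, joined by grey lines, with mean and SD beside them, and every obstructed point lies below every healthy point.

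Nid1 was the member of smallest p against healthy endothelia. Its sums had 327, 131, 166 and 137 CPM in healthy, 339, 363, 225 and 278 CPM in day 2 and 396, 385, 283 and 292 CPM in day 10 kidneys. Obstructed sums were above the healthy sum of the same number in every case, but the healthy sum of number 1 lay inside the obstructed ranges. The log2 change was 0.72 ± 0.22 at day 2 (edgeR adjusted p = 0.324) and 0.89 ± 0.22 at day 10 (adjusted p = 0.118). Lama4 had a log2 difference of 0.85 ± 0.35 at day 10 (adjusted p = 0.392), Nid2 of 0.66 ± 0.26 (adjusted p = 0.375), Lamc1 of 0.64 ± 0.29 (adjusted p = 0.472) and Lamb2 of -0.50 ± 0.17 (adjusted p = 0.294). Angiogenic endothelium-like wells, low in Lamb2 and high in Nid2 and Lamc1, numbered 10 healthy, 10 day 2 and 179 day 10, and the part of this in the values was not tested. Within the glomerular and angiogenic clusters together, unscaled Lama4 was 82.5, 31.1, 62.7 and 93.4 CPM in healthy, 226, 150.4, 124 and 132 CPM in day 2 and 306, 179, 234 and 111 CPM in day 10 wells, and Lamb2 was 156, 159.9, 170.1 and 133 CPM in healthy, 79.7, 105, 110.1 and 114 CPM in day 2 and 94.1, 88.8, 104 and 82.0 CPM in day 10 wells. For both genes the healthy sums stood apart from the obstructed ones, with Lama4 below and Lamb2 above. In the capillary and arterial clusters together, Lama4 ran over 31.2 to 214 CPM in healthy, 54.8 to 173 CPM in day 2 and 12.3 to 193 CPM in day 10 wells, and Lamb2 over 175 to 444, 255 to 513 and 230.0 to 437 CPM at the same times. There the times overlapped for both genes. edgeR called neither gene in either group. Sele-low wells supplied most healthy wells of the glomerular and angiogenic clusters, Sele-led wells most at day 2 and angiogenic wells most at day 10. The glomerular and angiogenic group too was chosen after the data were seen. Of all genes, 0.217% were called in it at day 2, 0.742% at day 10 and 0.259% between them, and in the capillary and arterial clusters 0.00854% were called at day 10 and 0.00854% between day 10 and day 2.

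Whether UUO acted differently in the 2 gates was tested as an interaction over all 24 sums. edgeR called 0 members at day 2, where 0 of 16116 genes were called, and 0 at day 10, where 0.0186% were called. Counts at an unadjusted p under 0.05 were 3 and 3 members (5.43% and 8.55% of all genes). DESeq2 called 0 members at day 2 and 1, Lamc1, at day 10 (1.38% and 3.82% of all genes). The smallest p at day 2 was that of Lamb1, with a difference of changes of -1.28 ± 0.36 (mesenchyme minus endothelia, log2; adjusted p = 0.672). At day 10 it was that of Lamc1, at -0.89 ± 0.24 (adjusted p = 0.245). So Lama4, Lamc1 and Nid1 (both times), Lamb1 (day 2) and Lamc3 (day 10), which passed between the gates in UUO and not in healthy kidneys, were not shown by edgeR to differ in their gate difference between conditions.

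Other genes of the basement membrane were taken from 4 lists. Among other laminin chains, Lama3 was lower in mesenchyme at all 3 times, with 2.54 ± 2.76 CPM in healthy mesenchyme and 46.3 ± 18.9 CPM in healthy endothelia (-5.02 ± 1.32, edgeR adjusted p = 0.0152). It was highest in the Ssu2-led arterial cluster, at 114 CPM. Of 18 collagens and partners, 5 were higher and 4 lower in mesenchyme in healthy kidneys, 6 and 5 at day 2, and 6 and 3 at day 10, where 21.7%, 19.8% and 20.1% of all genes were called. Col18a1, the collagen that yields endostatin, was higher by 1.81 ± 0.19 in healthy kidneys (adjusted p = 2.07e-05), and the peroxidase Pxdn, which crosslinks type IV collagen, was lower (log2 difference -1.24 ± 0.28, adjusted p = 0.00662).

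Of 11 laminin receptors, 5 were higher and 3 lower in mesenchyme in healthy kidneys, 6 and 3 at day 2, and 5 and 3 at day 10, beside the same 21.7%, 19.8% and 20.1% of all genes. Itga7, the integrin subunit of muscle laminin receptors, had 481 ± 63.9 CPM in healthy mesenchyme and 1.70 ± 1.87 CPM in healthy endothelia (8.91 ± 1.16, edgeR adjusted p = 0.000113). Bcam, a receptor for Lama5, was higher by 1.17 ± 0.14 (adjusted p = 6.76e-05) and Dag1, dystroglycan, by 1.93 ± 0.28 (adjusted p = 0.000251). Itgb4 was lower (log2 difference -6.12 ± 0.85, adjusted p = 0.000194), and at day 2 its partner Itga6 was lower (-7.74 ± 1.06, adjusted p = 0.000188). These subunits form a laminin receptor of epithelium. Of 12 genes that make or remove heparan sulfate, none passed in healthy kidneys or at day 10, where 21.7% and 20.1% of all genes were called. At day 2, 1 was higher and 1 lower, where 19.8% of all genes were called. These were the polymerase gene Ext1 (2.81 ± 0.62, edgeR adjusted p = 0.00563) and the sulfatase gene Sulf2 (-2.60 ± 0.74, adjusted p = 0.0254).

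Some partners of the laminin network passed in endothelia during UUO. At day 10 Col4a1 and Col4a2, the chains of the common type IV collagen, had 1151 ± 83.6 and 906 ± 38.0 CPM, against 528 ± 106 and 403 ± 69.3 CPM in healthy endothelia (SD, n = 4). They rose by 1.14 ± 0.20 and 1.17 ± 0.17 on the log2 scale (edgeR adjusted p = 0.0364 and 0.0218). Angiogenic markers, counted in the same sums, came to 3665 to 5299.5 CPM at day 10 and 2297 to 2969 CPM in healthy endothelia, with no overlap, beside 179 and 10 angiogenic endothelium-like wells, and their part in these changes was not tested. Sparc, a matrix protein that binds type IV collagen, rose by 0.94 ± 0.13 (adjusted p = 0.0165). Tinagl1, a matrix protein of basement membranes, fell by 1.22 ± 0.17 at day 10 (adjusted p = 0.0166), and its log2 change at day 2 was -1.12 ± 0.17 (adjusted p = 0.0370). These were 3 higher and 1 lower of 18 at day 10, where 0.627% of all genes were called, and 1 lower of 18 at day 2 (0.143%). None of the other lists' genes passed in endothelia. None of the 4 lists' genes passed in mesenchyme under edgeR, where 0.459% of all genes were called at day 2, 1.32% at day 10 and 0.048% between them. Whether the members and these partners differ in their change was not tested.

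Across the 24 sums, the genes of most similar pattern were looked up for each member by Pearson's r of log2 CPM among 7446 genes. These r are descriptions over sums that share gates and plates. For Lama2 they were Pde3a (r = 0.972), Notch2 (r = 0.957) and Lgals1 (r = 0.954), and for Lamb2 Tmem51 (r = 0.959), Bcam (r = 0.952) and Mdh1 (r = 0.951). For Nid2 they were Fkbp1a (r = 0.936), Sipa1 (r = 0.931) and Ppp1r13b (r = 0.930), and for Hspg2 Pola2 (r = 0.944), Esm1 (r = 0.919) and Sipa1 (r = 0.911). Lama5 had Ndufa11 (r = 0.894), Rrad (r = 0.892) and Abr (r = 0.891), and Lamc3 had Hspb6 (r = 0.891), Rasl11b (r = 0.886) and Rcan2 (r = 0.885). Lama4, Lamb1, Lamc1 and Nid1 had lower values, led by Tnfaip1 (r = 0.872), Slbp (r = 0.763), Mapk7 (r = 0.788) and Jak1 (r = 0.823).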

How the data were processed

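Per the labels' protocols, cells were placed 1 to a well in 6 plates and libraries were made by Smart-seq2. The authors deposited raw read counts per gene and well, spike-in counts (not used here) and a layout with a text label for each well. The aligner STAR and the mouse build mm10 are listed per the submitters' processing notes, without versions. The counting tool, annotation and strand setting are not given in the sources used here, so reads of overlapping or antisense genes and of near-identical copies may be shared.

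Entries of 1 symbol were added (24490 entries, 23998 symbols). Of 2292 sorted wells, 2235 passed filters of at least 1000 genes detected and 20000 gene reads. The 12 control wells had a median of 3264 reads. Raw counts were summed by gate, condition and layout number (number 1 was on plates 1 and 2, number 2 on plate 3, number 3 on plate 4 and number 4 on plates 5 and 6). The layout names no mouse, so that a number marks a mouse is an assumption, and p-values measure the spread between these sums. A condition and gate fill the same plate columns on every plate, so condition and columns cannot be told apart.

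edgeR 4.0.16 (R 4.3.3) was run with filterByExpr, TMM, quasi-likelihood F tests and Benjamini-Hochberg adjustment over all genes, at a threshold of 0.05. Each gate was fitted over 12 sums with number as a block, and the gates were compared in a fit of 24 sums with the mouse (condition and number) as a block. An SE is the log2 change over the square root of F. Same-numbered sums shared deviations only weakly (r from -0.041 to 0.24). What the block captures was not tested. All 10 members and 3 genes of most similar pattern for each are named, with up to 4 genes of smallest p of each companion list. Clusters came from scanpy 1.11.5 with 2000 variable genes (members and companion lists left out), 30 components, 15 neighbours and Leiden resolution 1. A cluster was named only from cell type markers, and doublets were not called. Lengths and positions are from GENCODE on GRCm38, and promoters from RefSeq on GRCm38.p6, matched by symbol for 6 of 10 members. The scripts were tested on simulated counts. Another gene of the companion lists is not reported here. DESeq2 1.42.0 and other alternatives were also run. Members, lists and tests were chosen with earlier results of these data known.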

Additional observations from a re-analysis of the deposited data

Results flagged for a closer look

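In 60 groups of 4 sums (10 members, 2 gates, 3 conditions), 8 groups held 1 sum far from the other 3 by Dixon's test, where chance flags about 1 in 20 groups. In each the sum was the highest. The cause was not tested for any of them.

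For the endothelia gate, Lama2 of number 4 had 1.63 CPM in healthy kidneys, where the other 3 had at most 0.148 CPM, and 2.97 CPM at day 10, where the others had at most 0.532 CPM. Lama5 of number 3 had 209 CPM in healthy endothelia, against 166 to 172 CPM. At day 2 of UUO, Lamb1 of number 2 had 167 CPM in endothelia (83.2 to 91.8 in the others), Lamc1 of number 3 had 260.0 CPM (116 to 140.0) and Hspg2 of number 3 had 645 CPM (367 to 403). In healthy mesenchyme, Lamb2 of number 3 had 689 CPM (566 to 579) and Nid2 of number 1 had 38.1 CPM (21.0 to 22.9).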

How the results depend on the processing

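Over 1578 values of single members under 22 settings, 1532 kept their side of the threshold, 22 lost a call, 24 gained one and 0 turned a called direction. Leaving out 1 number at a time left 4 to 5 members called between the gates in healthy kidneys, 6 to 8 at day 2 and 6 to 7 at day 10. Of all genes, 14.6% to 17.5%, 13% to 16% and 12.7% to 14.7% were called there. In every comparison of conditions these fits called 0 members and at most 1.35% of all genes. Without the replicate block 0 were called between conditions, with at most 0.857% of all genes called. Between the gates this setting called 5, 8 and 8 (Lamc1 at day 2 and Lama5 at day 10 were lost), with 22.5%, 20.7% and 20.7% of all genes called. Sums per plate gave 6, 10 and 10, with 27.9%, 25.6% and 26.1% of all genes called, and DESeq2 gave 6, 10 and 9, with 34.4%, 32.4% and 32.9%, against 21.7%, 19.8% and 20.1% in edgeR's test of the sums per number.

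Where edgeR called 0 members between conditions, other settings called some, and the cause was not tested. DESeq2 called 2 in mesenchyme at day 2 (Hspg2 at -0.48 and Lamb1 at -0.98 log2), 2 at day 10 (Hspg2 at -0.46 and Lamc3 at -1.41), 1 between day 10 and day 2 (Lamb1 at 0.94), 1 in endothelia at day 2 (Nid1 at 0.71), 1 at day 10 (Nid1 at 0.88) and 1 in the day 10 interaction (Lamc1 at -0.88). Of all genes it called 3.99%, 8.24%, 2.64%, 3.42%, 5.35% and 3.82% in these 6 comparisons, in that order. Sums per plate, where plates of 1 number are not separate mice, called 1 in mesenchyme at day 2 (Lamb1 at -1.08), 2 at day 10 (Hspg2 at -0.51 and Lamb2 at -0.37) and 1 in endothelia at day 10 (Nid1 at 0.81), with 1.17%, 3.68% and 2.33% of all genes called. Wells of at least 2000 genes and 50000 reads gave 1 in mesenchyme at day 2 (Lamb1 at -1.16; 0.478% of all genes).

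Fits within groups of clusters were added after the data were seen. In the smooth muscle-like and the Itih4- and Ren1-led clusters edgeR called 1 member at day 2 (Hspg2, -0.73 ± 0.12, adjusted p = 0.0188; 1.02% of genes called) and 1 at day 10 (Hspg2, -0.70 ± 0.12, adjusted p = 0.0222; 1.18% called). DESeq2 called 1 and 1 (adjusted p = 4.98e-06 and 1.72e-05), where it called 4.75% and 6.36% of genes. Both edgeR calls were lost without any 1 number (adjusted p from 0.0868 to 0.215 at day 2 and from 0.103 to 0.204 at day 10) and without the block (0.0651 and 0.0786), with log2 changes from -0.78 to -0.67. In the Ephx3-led cluster, the glomerular and angiogenic clusters, and the capillary and arterial clusters, edgeR called 0 members. Without fibroblast-like wells Lamb1 was also lower in mesenchyme at day 10 (-1.86), and among wells whose cluster matched the gate Nid1 at day 10 was not called (-0.78). Low counts of Lama2 and Lamc3 in endothelia limit how well their folds are fixed.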
